A study of Rattus norvegicus with 14 samples.

Results

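The interferon-stimulated genes Irf1, Irf7, Isg15, Mx1, Mx2, Oas1a, Ifit2, Ifit3 and Ddx58 were followed in colonocytes, the lining epithelial cells of the colon, of rats on a diet of normal (NPD) or of high protein content (HPD). Genes were chosen by name, and every probe of the array that carries one of these names and is not a control was taken. All 9 of 9 genes were on the array with 10 of its 30367 probes, and these belong to 26276 gene names in all. Irf1 had 2 probes, and the brighter of them stands for the gene in counts. Male Wistar rats received the diets for 15 days, with 14% of the energy from protein in the NPD and 55% in the HPD, and both diets held the same energy. The cells were detached with EDTA from the colon without its distal end, so that the RNA is that of a bulk preparation. There were 7 NPD and 7 HPD rats, each with an array of its own and a single dye. Rats that the authors removed as outliers were not analysed here.

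Interferons are secreted when sensors inside a cell meet foreign or misplaced nucleic acid. Binding of type I interferon to its receptor activates the kinases JAK1 and TYK2, and a complex that includes STAT2 and IRF9 then enters the nucleus and binds the interferon-stimulated response element (ISRE) in front of many genes. Their products include further transcription factors, nucleic acid sensors and proteins that block the replication of viruses. The intestinal epithelium expresses such genes at a low tonic level in the absence of infection.

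Over all 7 HPD rats, none of the 9 genes differed from the NPD at the q-value of 0.1 (limma). In 6 of the 7 HPD rats the levels of Irf7, Isg15 and Oas1a were below those of every NPD rat, and in the remaining rat, HPD replicate 6, they were above those of all other 13 rats. HPD replicate 6 held the highest value of the 14 rats in 9 of the 9 genes. It was the highest rat in 11.1% of all probes, and 1 other rat, HPD replicate 7, was so in 28.2%. In a fit without this rat, Isg15, Irf7 and Oas1a were differentially expressed (DE) and lower in the HPD group by 4.09-fold, 3.22-fold and 3.22-fold. That rat is recognised by the same values that are then compared, so the fit without it is not independent evidence of a diet difference, and the results with all 14 rats are given first throughout.

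Probe sequences are shown for these 3 genes, because all that follows on them rests on 1 probe each. The probes are printed 5′ to 3′ in the sense of the mRNA, with coordinates of the build rn4 as the scanner files give them. The Irf7 probe lies at chr1:201456889-201456948 on the minus strand and starts at base 1699 of the transcript named by the array design. The Isg15 probe lies at chr5:173034674-173034733 on the minus strand and starts at base 408. The Oas1a probe lies at chr12:36815068-36815127 on the plus strand and starts at base 1035. Each of them spans 60 bases of the genome without a break, therefore within a single exon. In each, at least 1 reading frame holds no stop codon, which so short a stretch can also have outside coding sequence. Whether they lie in coding sequence was not tested.
Irf7: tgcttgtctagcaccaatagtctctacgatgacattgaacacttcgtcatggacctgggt
Isg15: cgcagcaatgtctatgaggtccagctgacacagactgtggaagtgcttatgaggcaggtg
Oas1a: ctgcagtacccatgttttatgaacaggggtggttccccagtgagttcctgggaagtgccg

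Promoters of 5 of the 9 genes (Irf1, Irf7, Mx1, Oas1a and Ifit3) were taken from RefSeq on the build GRCr8, from 250 bases before to 50 bases after the start site. Isg15, Mx2, Ifit2 and Ddx58 were not matched. The promoters were searched on both strands for the core of the ISRE, spelled GAAANNGAAA, where N is any base. It was found in 3 of these 5 promoters (Irf7, Oas1a and Ifit3) and in 3.92% of all 33469 promoters of the same length. The GAS element, TTCNNNGAA, was found in 2 of them (Irf1 and Oas1a) and in 8.87% of all promoters. A match is a description of the letters and not evidence of binding. The 120 bases that end at the start site are printed in the sense of the gene, with the ISRE core in capitals, to show how near to the start it lies. They correspond to chr1:205800024-205800143 on the minus strand for Irf7, to chr12:41330346-41330465 on the plus strand for Oas1a and to chr1:241527206-241527325 on the plus strand for Ifit3. The core begins 69 bases before the start site in Irf7 and 44 bases before it in Ifit3, on the strand opposite to the gene in both. In Oas1a a pair of overlapping cores forms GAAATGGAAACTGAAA, which begins 41 bases before the start, and the pattern GAAANNGAAANNGAAA was found in 0.111% of all promoters.
Irf7: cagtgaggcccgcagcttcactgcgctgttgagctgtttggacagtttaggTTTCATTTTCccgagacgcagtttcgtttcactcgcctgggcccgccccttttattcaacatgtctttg
Oas1a: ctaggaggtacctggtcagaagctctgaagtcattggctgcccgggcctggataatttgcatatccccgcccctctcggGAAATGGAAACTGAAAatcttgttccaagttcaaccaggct
Ifit3: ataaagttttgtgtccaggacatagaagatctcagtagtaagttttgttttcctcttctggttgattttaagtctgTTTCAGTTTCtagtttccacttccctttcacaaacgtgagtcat

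Levels are given as log2 of the background-subtracted signal relative to the median of all probes on the same array, so a value of 0 is the array median and a difference of 1 is a 2-fold difference. They compare rats for the same probe, and not probes with each other. Each array had between 18926 and 21042 probes well above background, and the median correlation of an array with the others lay between 0.981 and 0.988. HPD replicate 6 had 19345 such probes and a median correlation of 0.984, within these ranges. The arrays lay on 2 slides (4 NPD and 3 HPD rats on the first, 3 NPD and 4 HPD rats on the second), and HPD replicate 6 was on the second. In a fit of diet and slide, 12164 of the 30367 probes were DE between the slides. The main fit has diet as its only term, and slide enters only where it is named as a block. All 12 epithelial markers were well above background on every array, as were 8 of 18 immune markers, among them Ptprc, Cd3g and Cd68, while Siglech was so on no array. The summed signal of the immune markers ranged from 72.3 to 116 array medians in NPD rats and from 71.2 to 100 in HPD rats, with 86.3 in HPD replicate 6. This sum is on the linear scale and is mostly Cd14, whose log2 level was 6.16 on average in NPD rats and 6.05 in HPD replicate 6. A change in the other immune markers would hardly move it. No marker of epithelial, immune, stromal and muscle or red blood cells was more than 1 (log2) higher in that rat than in the other HPD rats. The largest excesses over their mean were just under this, with 0.99 in the immune marker Gzmb and 0.94 in the stromal marker Pecam1. The median excess was 0.04 over the immune markers and -0.07 over the stromal and muscle markers. In a bulk preparation, a change in the number of cells of a type cannot be told apart from a change of RNA per cell.

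**Figure D1:**
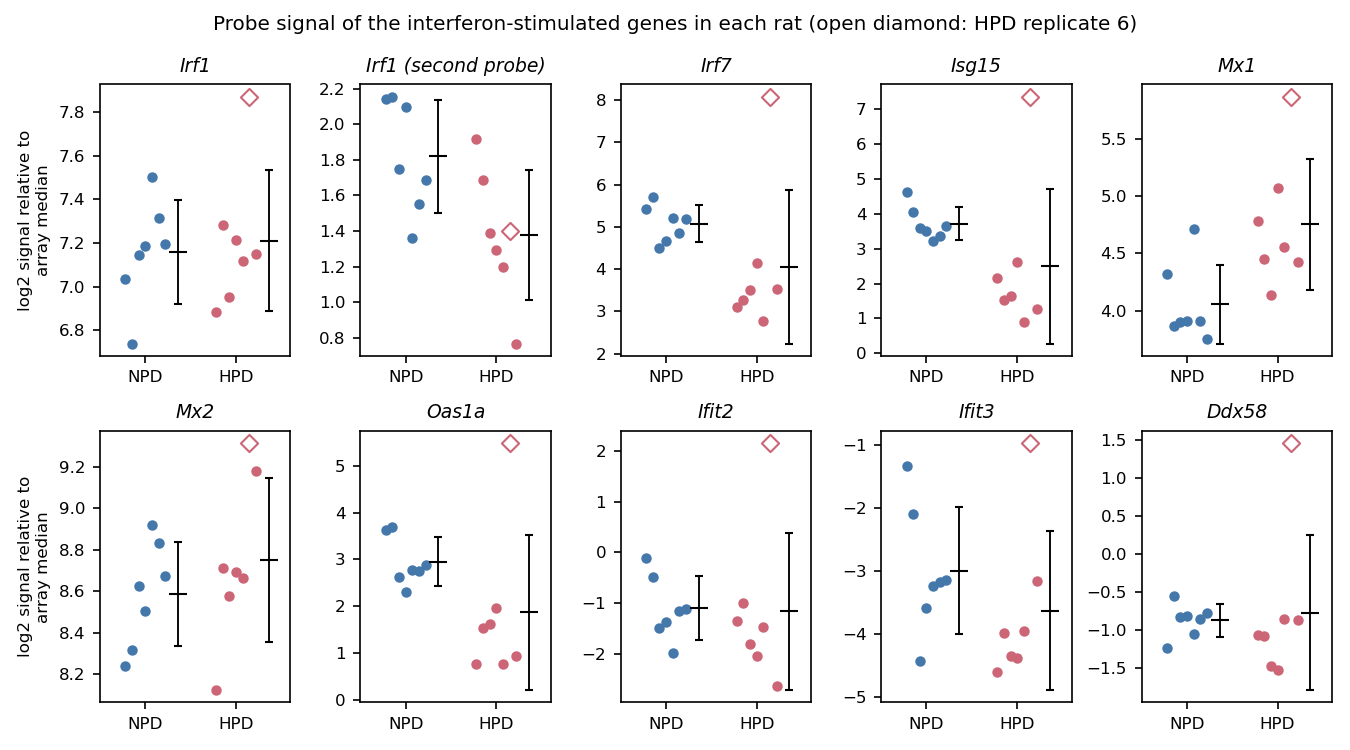
Log2 signal relative to the array median (vertical axis) of the 10 probes in each of 7 NPD and 7 HPD rats. Points are rats, the open diamond is HPD replicate 6, and bars are the mean ± SD of the group. In Irf7, Isg15 and Oas1a the 6 other HPD rats lie below all NPD rats and the diamond lies above them.

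Irf7 encodes the interferon-induced transcription factor that amplifies the type I response. In NPD rats its level was between 4.49 and 5.70 with a median of 5.20. In HPD rats it was between 2.78 and 8.08 with a median of 3.51. The highest value is that of HPD replicate 6, and the next HPD rat was at 4.15, below the lowest NPD rat, so that 6 HPD rats lay under the whole range of the NPD and 1 lay over it. Over all 14 rats the log2 fold change (HPD minus NPD) was -1.02 ± 0.64 (SE, limma adjusted p = 0.508). An exact two-sided permutation test of the difference of means gave p = 0.175. The fit without HPD replicate 6 gave -1.69 ± 0.24 (limma adjusted p = 0.0153).

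Isg15 encodes a ubiquitin-like protein that is attached to other proteins after interferon and is also secreted. Its level was between 3.23 and 4.62 in NPD rats, with a median of 3.60. It was between 0.89 and 7.35 in HPD rats, with a median of 1.63. Again the top of the HPD range was HPD replicate 6 alone, and the next HPD rat, at 2.63, was below every NPD rat. Over all 14 rats the log2 fold change was -1.22 ± 0.77 (SE, limma adjusted p = 0.509, exact two-sided permutation p = 0.179). Without HPD replicate 6 it was -2.03 ± 0.28 (limma adjusted p = 0.0153), the largest difference among the 9 genes in that fit.

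Oas1a encodes a 2′-5′ oligoadenylate synthetase, an enzyme that senses double-stranded RNA. Its level was between 2.29 and 3.69 in NPD rats, with a median of 2.78. It was between 0.76 and 5.48 in HPD rats, with a median of 1.54. The pattern was the same, with 6 HPD rats at or below 1.97 and thus under the NPD range, and HPD replicate 6 over it. The log2 fold change was -1.08 ± 0.60 with all rats (SE, limma adjusted p = 0.471, exact two-sided permutation p = 0.122) and -1.69 ± 0.27 without that rat (limma adjusted p = 0.0344). Whether the probe also binds mRNA of the neighbouring Oas1 paralogs was not tested.

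For each of these 3 genes the exact permutation p without HPD replicate 6 was 0.00117, which is the smallest that 1716 splits of 7 and 6 rats can give. It restates that the remaining HPD rats all lay below the NPD rats. Since that rat was set aside by these same values, this p is not further evidence of a diet difference. Complete separation of these groups in the lower direction was found for 68 of 30330 probes without that rat (0.224%), and with all rats for 44 (0.145%), none of them a probe of the 9 genes. In the fit without that rat 11 probes of all 30367 were DE and lower (0.0362%). The values within slides differed in the same way. On the first slide, which does not hold HPD replicate 6, the difference HPD minus NPD was -1.78 for Irf7, -2.17 for Isg15 and -1.75 for Oas1a on the log2 scale. On the second it was -0.45, -0.38 and -0.52, and without HPD replicate 6 it was -1.60, -1.81 and -1.58. P-values measure the spread between these rats.

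**Figure D2:**
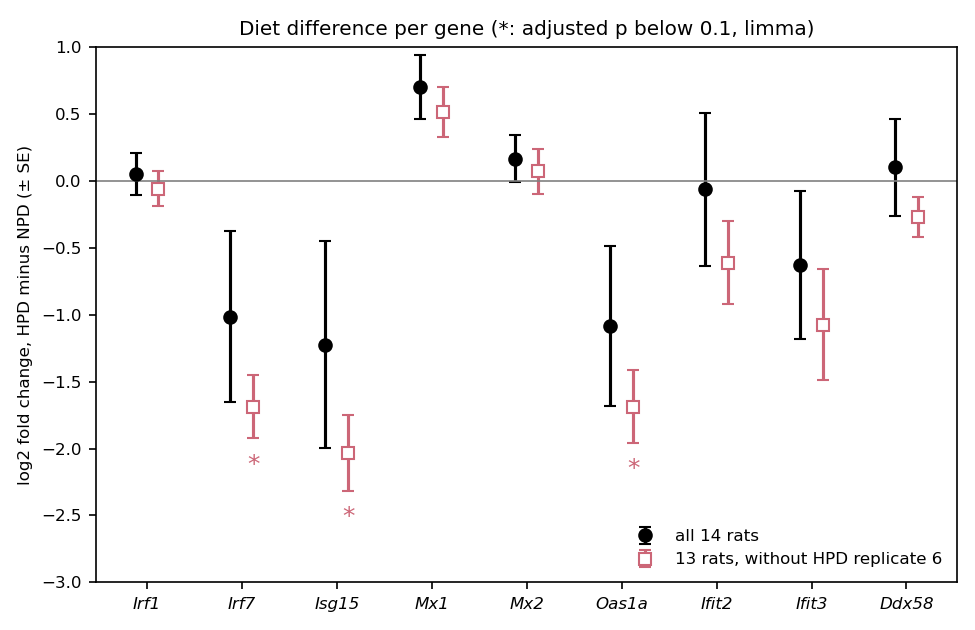
Log2 fold change, HPD minus NPD, with its SE (vertical axis), for each of the 9 genes. Black points are the fit over all 14 rats, open squares the fit over 13 rats without HPD replicate 6, and asterisks mark a limma adjusted p below 0.1. Isg15, Irf7 and Oas1a pass only in the latter, and Mx1 lies above 0 in both.

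Mx1, a dynamin-like GTPase that blocks the replication of several viruses, was at 3.75 to 4.72 in NPD rats with a median of 3.91. In HPD rats it was at 4.13 to 5.87 with a median of 4.56. The ranges overlapped, but all 7 HPD rats were above the NPD mean. The log2 fold change was 0.70 ± 0.24 (SE, limma unadjusted p = 0.0103, adjusted p = 0.417), and 0.52 ± 0.18 without HPD replicate 6 (limma adjusted p = 0.577). Among the brightest probes of the 9 genes, that of Mx1 was the single one with an unadjusted p below 0.05 over all rats, in the direction opposite to Irf7, and it did not pass the adjustment. The dimmer probe of Irf1 had a limma unadjusted p of 0.0280. Of all probes, 5.86% had an unadjusted p below 0.05 and were higher.

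Mx2, a related GTPase, was at 8.24 to 8.92 in NPD rats with a median of 8.62. In HPD rats it was at 8.12 to 9.31 with a median of 8.69. The groups overlapped almost entirely, and the log2 fold change of 0.17 ± 0.18 was under its spread (SE, limma adjusted p = 0.646). HPD replicate 6 was the highest rat here too, yet by 0.65 over the mean of the other HPD rats.

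Ifit2 and Ifit3 encode proteins with tetratricopeptide repeats that bind RNA and hinder its translation. Ifit2 was at -1.97 to -0.11 in NPD rats with a median of -1.14. In HPD rats it was at -2.62 to 2.14 with a median of -1.47. Groups overlapped, HPD replicate 6 stood apart at the top, and the log2 fold change was -0.06 ± 0.57 with all rats (SE, limma adjusted p = 0.963) and -0.61 ± 0.31 without that rat (limma adjusted p = 0.596). In HPD replicate 7 the probe was not well above background.

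Ifit3 was well above background in only 3 rats, NPD replicates 1 and 2 and HPD replicate 6, and its values elsewhere are near the background. It was at -4.42 to -1.32 in NPD rats with a median of -3.18. In HPD rats it was at -4.60 to -0.97 with a median of -3.98. The 3 rats in which it was measured were also the 3 highest in Irf7. The log2 fold change was -0.63 ± 0.55 (SE, limma adjusted p = 0.580). Leaving out HPD replicate 6 gave -1.07 ± 0.41 (limma adjusted p = 0.577).

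Ddx58 encodes RIG-I, a cytosolic sensor of viral RNA. It was at -1.24 to -0.55 in NPD rats with a median of -0.83. In HPD rats it was at -1.53 to 1.45 with a median of -1.07. The 6 other HPD rats ended at -0.86, inside the NPD range, and HPD replicate 6 lay above all rats. The log2 fold change was 0.10 ± 0.36 over all rats (SE, limma adjusted p = 0.895) and -0.27 ± 0.15 without that rat (limma adjusted p = 0.621), so that its sign depended on that rat.

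Irf1 encodes a transcription factor that interferon γ induces in particular. Its brighter probe (rn4, chr10:39227520-39227579, plus strand) was at 6.74 to 7.50 in NPD rats with a median of 7.18. In HPD rats this probe was at 6.88 to 7.87 with a median of 7.15. The groups overlapped and the log2 fold change was 0.05 ± 0.16 (SE, limma adjusted p = 0.878). The other probe (chr10:39224461-39224695), which lies upstream and whose 60 bases are split over 235 bases of the genome, was at 1.36 to 2.15 in NPD rats and 0.77 to 1.92 in HPD rats. Its log2 fold change was -0.44 ± 0.18 (SE, limma adjusted p = 0.418, exact two-sided permutation p = 0.0338). HPD replicate 6 was at 1.40 in this probe, in the middle of its group, and the probes of Irf1 thus disagreed both in the diet difference and in that rat.

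Over all 14 rats 4 of the 9 genes were higher and 5 were lower in the HPD group, 0 of them DE by limma, beside 17 DE probes of 30367 that were higher (0.056%) and 0 that were lower (0%). Of all probes 35.8% were lower. Their median log2 fold change was -0.06, and that of all probes was 0.11. Without HPD replicate 6, 2 were higher and 7 lower, with a median of -0.61 beside 0.07 over all probes, and 3 were DE. In that fit 38.9% of all probes were lower. The directions of Irf1, Ifit2 and Ifit3 over all rats also turned with the signal column or the normalization. Cyclic loess moved the median of all probes from 0.11 to 0.00067, a shift that leaves the differences of Irf7, Isg15 and Oas1a below 0.

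HPD replicate 6 exceeded the mean of the other HPD rats by 5.66 (log2) in Isg15, which is 50.6-fold. The excess was 4.69 in Irf7 (25.8-fold) and 4.22 in Oas1a (18.6-fold). It was 3.85 in Ifit2, 2.60 in Ddx58, 1.30 in Mx1, 0.77 in Irf1 and 0.65 in Mx2. Ifit3 was not well above background in the other HPD rats, so that its excess has no measured size. An excess above 1 was found in 6 of the other 8 genes and in 4.70% of all probes. Against the NPD mean, HPD replicate 6 was higher by 3.63 in Isg15, 3.00 in Irf7 and 2.53 in Oas1a.

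Each rat was left out in turn in 14 fits. Leaving out any of the other 13 rats gave a log2 fold change between -1.11 and -0.80 for Irf7 with limma adjusted p-values from 0.391 to 0.716. For Isg15 it was between -1.31 and -0.96 (limma adjusted p from 0.384 to 0.733), and for Oas1a between -1.19 and -0.90 (limma adjusted p from 0.350 to 0.695). The sign was thus negative in every one of these fits, and DE genes among the 9 appeared only in the fit that left out HPD replicate 6. With slide as a block beside that omission, the limma adjusted p was 0.0192 for Irf7, 0.0160 for Isg15 and 0.0513 for Oas1a, beside 0.0494% of all probes DE and lower.

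**Figure D3:**
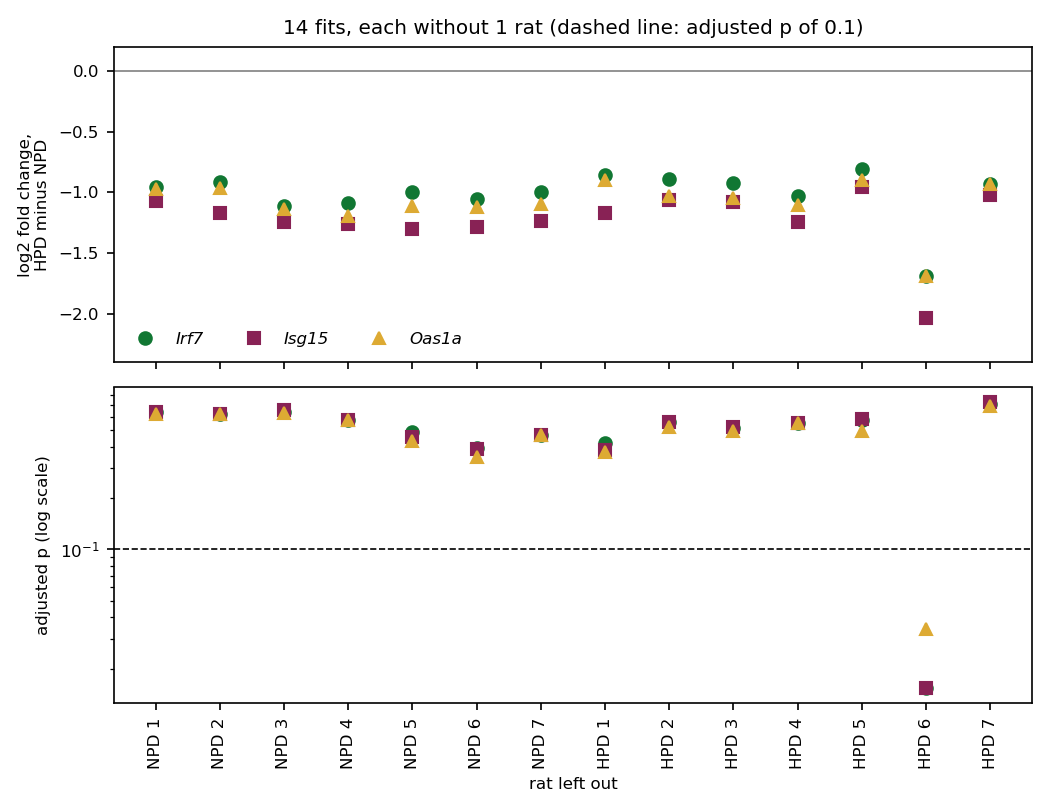
Log2 fold change, HPD minus NPD (upper panel), and limma adjusted p on a log axis (lower panel) of Irf7, Isg15 and Oas1a in 14 fits, each without the rat named on the horizontal axis. The dashed line is an adjusted p of 0.1. Values of 13 fits lie close together above the line, and those without HPD replicate 6 lie below it.

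Whether the genes vary together from rat to rat was asked by their correlation with Irf7 over 14 rats, which makes 8 relations. Pearson's r with Oas1a was 0.978 and Spearman's rho was 0.978 (permutation p = 1e-05 for both, the smallest that 100000 permutations can give, adjusted p = 4e-05 and 8e-05). With Isg15, r was 0.967 (permutation p = 1e-05, adjusted 4e-05) and rho 0.895 (permutation p = 5e-05, adjusted 0.0002). Rats that were high in Irf7 were also high in both of these genes. With Ifit3, r was 0.823 and rho 0.776, but only 3 of the 14 rats had a value well above background, so no test is given.

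With Ifit2, r was 0.786 (permutation p = 0.00461, adjusted 0.00922) and rho 0.499 (permutation p = 0.0728, adjusted 0.133). With Ddx58, r was 0.755 (permutation p = 0.0114, adjusted 0.0182) and rho 0.481 (permutation p = 0.0834, adjusted 0.133). With Irf1, r was 0.557 (permutation p = 0.0458, adjusted 0.0611) and rho 0.288 (permutation p = 0.318, adjusted 0.424). For Mx2 these were 0.337 (permutation p = 0.238, adjusted 0.272) and 0.152 (permutation p = 0.606, adjusted 0.606). For Mx1 they were 0.308 (permutation p = 0.274, adjusted 0.274) and -0.222 (permutation p = 0.446, adjusted 0.510).

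Without the 2 rats farthest from the median of Irf7, which were HPD replicates 6 and 5, r was 0.956 with Oas1a and 0.909 with Isg15, and these relations held (adjusted permutation p = 8e-05 and 0.00036, read against 0.05). The relations with Ifit2 and Ddx58 rested on those rats, since r was then 0.505 and 0.423 (adjusted permutation p = 0.194 and 0.231). A difference between the diets also enters r. With HPD replicate 6 left out and the diet means subtracted, r with Oas1a was 0.841 (permutation p = 0.00045, adjusted 0.0036), and it was 0.639 with Isg15 (permutation p = 0.019, adjusted 0.076). In that setting rho was 0.791 with Oas1a (permutation p = 0.00186, adjusted 0.0149) and 0.489 with Isg15 (permutation p = 0.0934, adjusted 0.336). Within the first slide, with the diet means not subtracted, r was 0.973 with Oas1a and 0.936 with Isg15. Within the second slide, which holds HPD replicate 6, it was 0.993 and 0.992, over 7 rats each. The difference between the diets enters these values.

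**Figure D4:**
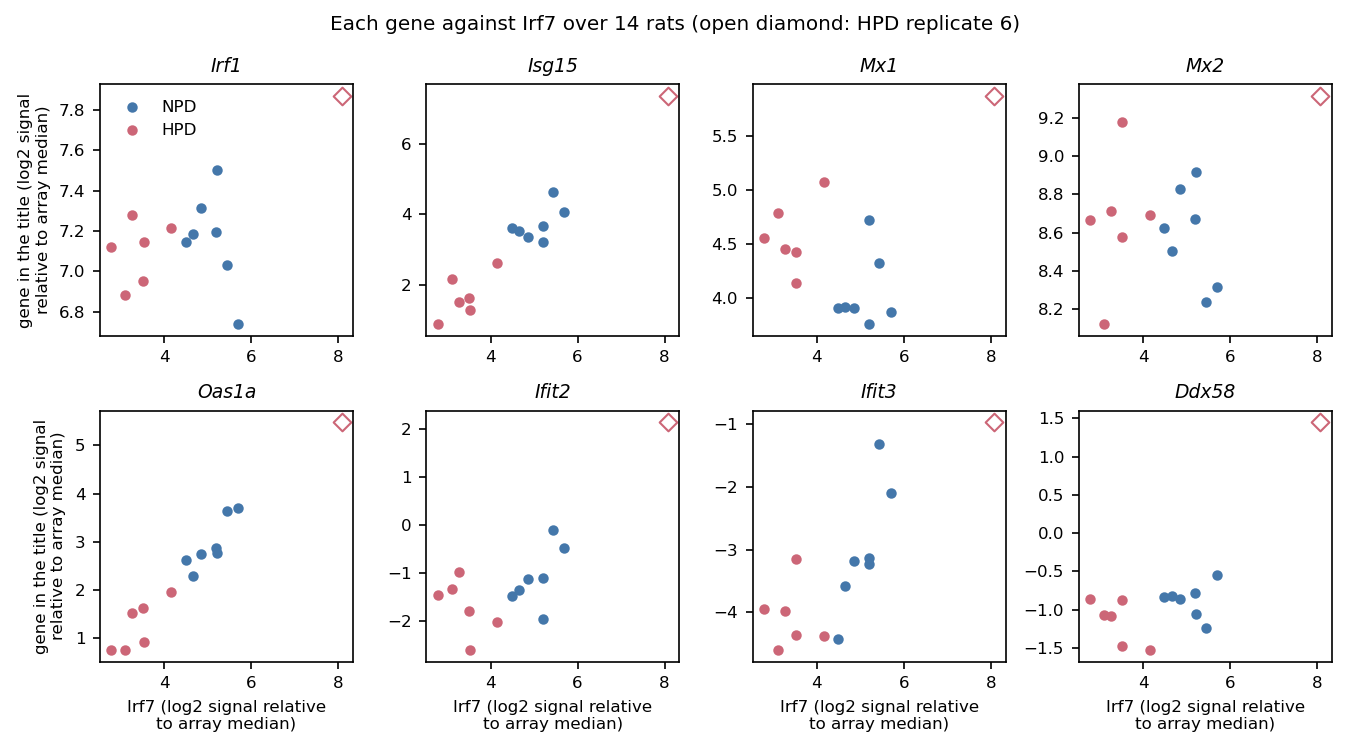
Level of each of 8 genes (vertical axis) against that of Irf7 (horizontal axis), both as log2 signal relative to the array median, in 14 rats. The open diamond is HPD replicate 6. Oas1a rises with Irf7 along the whole range. Isg15 rises with Irf7 over all rats, but not steadily among the rats of a diet. The diamond is the highest point in every panel.

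Other genes of the interferon pathway were counted from lists of 112 genes, 92 of them on the array and 76 well above background in all rats of at least 1 diet. Over all rats 40 were higher and 52 were lower in the HPD group, with 1 higher and 11 lower at an unadjusted p below 0.05 (5.86% and 5.55% of all probes) and 0 DE by limma. Their median log2 fold change was -0.09. Without HPD replicate 6, 24 were higher and 68 lower, with 1 higher and 28 lower at an unadjusted p below 0.05 (4.23% and 4.12% of all probes) and a median of -0.23. In that fit 6 were DE, all lower, beside 0.0362% of all probes.

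Interferons themselves were hardly measurable. Of 5 interferon genes on the array only Ifna4 was well above background on every array, while Ifnb1 was so on none, and Ifng on 4 NPD arrays and 1 HPD array. HPD replicate 6 was not the highest rat in Ifna4, and its rank in the other 4 is not read. Among 5 receptor subunits, 4 of them measured above background in all rats of a diet, it was the highest in 1, and none of them exceeded the other HPD rats by more than 1 (log2) there. Ifnar1, a subunit of the type I receptor, differed by -0.31 on the log2 scale (limma adjusted p = 0.456).

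Of the signal transducers, Stat2 was at 6.76 in HPD replicate 6, above all other rats, which reached 5.86. The excess over the mean of the other HPD rats was 1.37 in Stat2 and 1.50 in Irf9, which encodes its partner in the complex that binds the ISRE. For the kinases it had the opposite sign, with -0.24 in Jak1 and -0.85 in Jak2. None of these 4 genes was DE, with limma adjusted p-values from 0.425 to 0.783.

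Of 10 sensors and adaptors, 5 exceeded the other HPD rats by more than 1 in HPD replicate 6, but 1 of these, Tlr9, was well above background on no array. The excess was 3.59 in Zbp1, a sensor of left-handed nucleic acid, and 1.59 in Dhx58, a relative of RIG-I. It was 1.47 in Tlr3 and 1.15 in Ifih1, which encodes the RNA sensor MDA5. The adaptor Mavs, which acts downstream of MDA5, and the transcription factor Irf3 had 0.33 and -0.03.

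All 3 measured genes of ISG15 conjugation and removal were highest in HPD replicate 6. Uba7, the activating enzyme, was at 4.90 there and between 2.79 and 3.02 in the other HPD rats. The excess over their mean was 2.23 in Ube2l6, the conjugating enzyme, and 4.13 in Usp18, the protease that removes ISG15 and restrains the receptor. Usp18 ranged from -1.07 to 1.08 in NPD rats and from -2.73 to 2.16 in HPD rats, where the next highest rat was at -1.58. Its log2 fold change was -1.36 ± 0.62 over all rats (SE, limma adjusted p = 0.431) and -1.95 ± 0.34 without HPD replicate 6 (limma adjusted p = 0.0605).

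Of 11 negative regulators and other members of the IRF family, 8 of them well above background in all rats of a diet, 2 were highest in HPD replicate 6, and none exceeded the other HPD rats by more than 1. Among them, Socs1 and Socs3, inhibitors of JAK signalling, had 0.27 and -0.15.

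The largest list held 53 other interferon-induced genes on the array, and HPD replicate 6 was the highest rat in 32 of them, beside 11.1% of all probes (28.2% for HPD replicate 7). In 1 of the 32, Ifit1lb, no array was well above background. Over all rats 8 were lower and 1 was higher at an unadjusted p below 0.05 (5.55% and 5.86% of all probes). Without that rat 22 were lower and 1 was higher (4.12% and 4.23% of all probes), and 5 were DE and lower (0.0362% of all probes). These 5 were chosen after their values were seen. They were Oas1k (log2 fold change -1.67, limma adjusted p = 0.0181), Bst2 (-1.38, adjusted p = 0.0338), Oasl2 (-1.72, adjusted p = 0.0351), Ly6e (-1.69, adjusted p = 0.0547) and Oas1i (-1.81, adjusted p = 0.0771). Oas1k, Oas1i and Oasl2 belong to the family of oligoadenylate synthetases, Bst2 encodes tetherin, which holds budding virus at the cell surface, and Ly6e a surface protein.

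By their smallest p-values over all 14 rats, 10 pathway genes were selected, of which 9 are described, and 0 of the 10 were DE (limma adjusted p from 0.417 to 0.431). Ifi47 and Irgm, immunity-related GTPases, had log2 fold changes of -0.81 ± 0.26 and -0.80 ± 0.27 (SE). Igtp, a further GTPase of this family, was higher by 0.28 ± 0.12. Tbk1, the kinase of Irf3 and Irf7, had -0.63 ± 0.25. Ifi35, Jak2, Oasl2, Dtx3l and Usp18 had -0.37, -0.55, -1.20, -0.45 and -1.36. In Ifi47, Irgm, Ifi35 and Igtp, HPD replicate 6 lay within the range of the other 13 rats, and their differences were of like size without it, from -0.95 to 0.29.

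**Figure D5:**
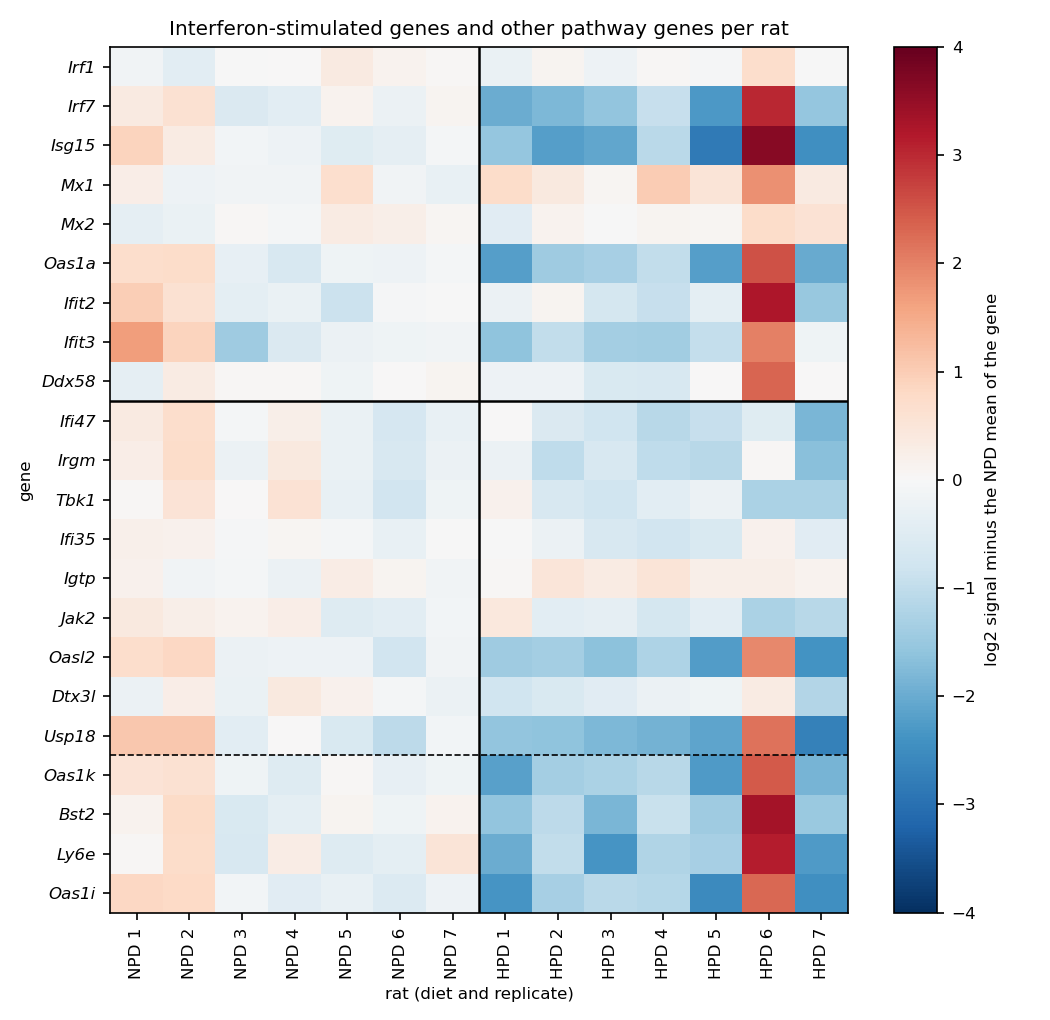
Log2 signal minus the NPD mean of the gene (colour) for 9 interferon-stimulated genes, 9 pathway genes with small p (between the lines) and 4 further pathway genes DE without HPD replicate 6 (under the dashed line), in 14 rats. The column of HPD replicate 6 is red where the other HPD rats are blue in Irf7, Isg15, Oas1a, Oasl2, Usp18, Oas1k, Bst2, Ly6e and Oas1i, while Ifi47 and Irgm do not show this.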

How the data were processed

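Colonocyte RNA of 7 NPD and 7 HPD rats was measured on 1-colour Agilent arrays, 1 array per rat, and rats were grouped by their labels. The authors deposited, for each array, the scanner output of Feature Extraction 10.7.3.1, with the intensity of each spot on a linear scale. They also deposited log2 values that were already normalized, in a file with a line per gene name. Per the methods, signals were log2-transformed and centred by array, spots present more than once were averaged, and limma was fitted with diet as its only term. Which signal column and which centre were taken is not given in the sources used here.

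Here control spots and outlier spots were dropped, log2 of the background-subtracted signal was averaged over the spots of a probe, and the median over probes was subtracted from each array. The diet term was tested over all 30367 probes by lmFit and eBayes of limma 3.58.1 (R 4.3.3, files read by version 1.17.8 of data.table), with Benjamini-Hochberg adjustment, a q-value below 0.1 and no filter on signal. Single genes were compared by exact permutation tests and correlations by 100000 permutations (scipy). The fit was tested on simulated data. Precision is limited by the number of arrays.

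A gene was read by its brightest probe. The genes and lists were chosen with earlier results of these data known. All 9 genes are named, with the 10 pathway genes of smallest p among those well above background on every array of a group (1 of which is not reported here), and the 5 other genes most correlated with the mean of the 9. Alternatives were other signal columns, background corrections, normalizations, filters and blocks, the deposited table and leaving out each rat in turn, and combinations of these without HPD replicate 6 were chosen after seeing the data. The rats removed by the authors were not analysed here.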

Additional observations from a re-analysis of the deposited data

Results flagged for a closer look

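In 40 sets of 7 values, which are the 10 probes of the 9 genes and the 10 named pathway genes in each diet, the highest and the lowest rat were compared with their neighbours. Chance alone sets a rat apart in about 1 of 20 such sets. A rat stood far from the others in 9 sets, 7 of them from the 9 genes, and it was the highest HPD rat, replicate 6, in all 9. Its gap to the next HPD rat, as a share of the range of the HPD group, was 0.774 in Ddx58, 0.743 in Oas1a, 0.741 in Irf7, 0.731 in Isg15, 0.657 in Ifit2, 0.601 in Ifit3 (near background in the other HPD rats) and 0.598 in Irf1 (brighter probe). The share was 0.766 in Usp18 and 0.732 in Oasl2. In levels, the gap ran from 4.15 to 8.08 in Irf7, from 2.63 to 7.35 in Isg15, from 1.97 to 5.48 in Oas1a and from -0.86 to 1.45 in Ddx58. The genes share the same array and are not independent of each other.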

How the results depend on the processing

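With HPD replicate 6 kept, 0 of the 9 genes were DE in any setting run, and Irf7, Isg15 and Oas1a were lower and Mx1 higher in each of these 26 settings. The fold changes ranged from -1.17 to -0.80 in Irf7, from -1.31 to -0.96 in Isg15, from -1.19 to -0.90 in Oas1a and from 0.53 to 0.81 in Mx1. Other genes turned sign, and the cause was not tested. The log2 fold change of Irf1 was -0.062 with the mean and -0.056 with the median pixel signal, -0.10 with normexp, -0.036 with quantile normalization, -0.035 with cyclic loess, and in the deposited table -0.22 without and -0.20 with slide as a block. That of Ifit2 was 0.14, 0.15 and 0.18 with the mean and median pixel signal and normexp, and 0.11 in the deposited table, with and without slide as a block. Ifit3 gave 0.021, 0.014 and 0.036 with the same 3 signals, and Mx2 gave -0.014 in the deposited table when slide was a block. The deposited table has a single line for Irf1, which has 2 probes on the array. In NPD replicate 1 that line was at 3.90 and the brighter probe at 7.03, while Mx2 was at 6.42 there and its probe at 8.24. The deposited Irf1 values are thus not those of the brighter probe alone. How that line was made was not tested. The dimmer probe had a log2 fold change of -0.44.

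DE probes over all genes, 17 of 30367, became 27 with slide as a block and 5142 with normexp. In the deposited table, which has a line per gene name, 2758 of 26261 gene names were DE when slide was a block. In the last 2 settings 6 pathway genes (92 on the array) were DE, a smaller share than over all probes or gene names.

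Leaving out each rat in turn gave 9 to 151 DE probes (151 without HPD replicate 1, 28 without HPD replicate 6, and 9, 9, 10, 10 and 11 without NPD replicates 4 and 6, HPD replicates 4 and 5 and NPD replicate 2), 0 to 3 of the 9 genes and 0 to 6 pathway genes, the upper values of both without HPD replicate 6 and 0 without any other rat. Fold changes then ranged from -0.060 to 0.11 in Irf1, from -0.61 to 0.18 in Ifit2 and from -0.27 to 0.23 in Ddx58.

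Without HPD replicate 6, 3 of the 9 genes were DE with slide as a block, 75th percentile centring, cyclic loess, normexp, the mean pixel signal and the deposited table, 2 with quantile normalization (Oas1a lost, with a log2 fold change of -1.64 and a limma adjusted p of 0.108) and 4 in the deposited table when slide was a block (with Irf1 added). In the order slide, 75th percentile, quantile, cyclic loess, normexp, mean pixel signal, deposited table and deposited table with slide, DE pathway genes were 6, 4, 3, 3, 7, 6, 6 and 26 (92 on the array). In the same order, DE probes of 30367 were 36, 27, 24, 22, 189 and 27, and DE gene names of 26261 in the deposited table were 29 and 2390.

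Correlations with Irf7, with diet means subtracted, were 0.645 for Irf1 and 0.761 for Mx1, and both then had an adjusted permutation p below 0.05, whereas rho did not (adjusted permutation p = 0.348 and 0.132). That of Irf1 was 0.636 in the deposited table, where its values are not those of the brighter probe alone. Without the 2 rats farthest from the median they were -0.447 for Mx1, -0.126 for Mx2, 0.505 for Ifit2 and 0.423 for Ddx58. With diet means subtracted and HPD replicate 6 left out, they were -0.190 for Irf1, 0.296 for Mx1, 0.639 for Isg15, -0.037 for Mx2, 0.087 for Ifit2, 0.536 for Ifit3 and -0.395 for Ddx58.

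Deviations of rats that share a replicate number correlated with 0.386, 0.212, 0.143, -0.0899, 0.206, 0.382 and 0.293 for numbers 1 to 7. The rats of number 4 lay on different slides and those of each other number on the same slide. The labels give the numbers no meaning, so they were not taken as pairs. With replicate number as a block, 8 probes and 0 of the 9 genes were DE (limma adjusted p = 0.341 for Irf7, 0.330 for Isg15, 0.288 for Oas1a and 0.186 for Mx1).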

Other observations

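Among 17454 probes of other genes that were well above background on all 14 arrays, 5 were most like the mean of the 9 genes, taken over the 7 of them with a brightest probe above background on every array and after the means of slide and diet had been subtracted. They were Herc6 (r = 0.981 over 14 arrays), Oas1k (0.980), Parp14 (0.979), Bst2 (0.977) and an unnamed probe (0.977). Without HPD replicate 6 the correlations were 0.852, 0.899, 0.775, 0.740 and 0.470 over 13 arrays. Herc6 encodes a ligase of the HERC family, and Parp14 an ADP-ribosyltransferase. In HPD replicate 6, Herc6 was at 6.07, while NPD rats ranged from 1.65 to 2.48 and the other HPD rats from 0.22 to 1.96. Its log2 fold change was -0.86 without that rat (limma adjusted p = 0.577).

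The 11 probes that were DE and lower in the fit without HPD replicate 6 belonged to 10 genes, and 9 of these were among the 9 interferon-stimulated genes or the pathway lists. The pathway lists held 92 genes on the array, of 26276 gene names. That rat was set aside by its values in such genes, and the lists were chosen with earlier results known. The overlap is therefore not independent evidence. The remaining gene of the 10 was Slfn3, a member of the schlafen family, which was in none of the lists. It is named here after its values were seen. Its log2 fold change in that fit was -2.99 (limma adjusted p = 0.0088), and HPD replicate 6 exceeded the mean of the other HPD rats by 5.69 on the log2 scale.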
